A study of Mus musculus with 9 samples.

Results

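The genes described here encode the intermediate filaments of the cytoplasm and nucleus that were followed in mouse podocytes, together with the linker plectin. They are the rows of the deposited expression table with the symbols Vim, Des, Nes, Krt7, Krt8, Krt18, Lmna, Lmnb1, Lmnb2 and Plec, chosen by name, and all 10 were found among 23309 symbols, each on 1 row. The study measured RNA of podocytes, epithelial cells whose foot processes cover the capillaries of the kidney glomerulus, in 9 libraries of 3 per group. All mice were labelled wildtype, carrying the mTmG reporter and a Cre transgene, and were 7 to 8 weeks old, and the groups had received PBS, or were sampled 9 days (ADR_D9) or 14 days (ADR_D14) after injection of an agent the labels call ADR. In these mice a Cre recombinase made in podocytes turns on membrane green fluorescent protein, and RNA was taken from GFP-positive cells. The PBS group thus carries the same reporter and Cre as the ADR groups. Whether each library stands for its own animal is not in the labels, so a p-value here speaks only of variation among the libraries at hand.

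Intermediate filaments are rope-like polymers of rod-shaped proteins that give cells and nuclei mechanical strength. Vimentin and desmin can polymerise alone, nestin needs a partner such as vimentin, keratins form obligate pairs of a type I and a type II chain, and lamins line the inner face of the nuclear envelope. Mature podocytes are known for a vimentin network in the cell body and major processes, and desmin is a much used marker of podocyte injury in rodents.

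Expression is given in FPKM (fragment counts divided by transcript length and library size), units that allow levels of different genes to be set side by side. The depth of a library is not stated; from the steps between low values, depth relative to PBS replicate 2 ran from 0.786 to 1.085 over the PBS and day 9 libraries and from 0.239 to 0.569 over the day 14 libraries. ADR_D9 replicate 3 and ADR_D14 replicate 1 stood apart in endothelial, tubule and leukocyte markers. All 14 listed endothelial markers reached at least 1 FPKM and over 4 times the PBS maximum in both, and their sums were 3327 and 804 FPKM against 1.26 to 29.0 in the other libraries. ADR_D14 replicate 1 also had 12 of 13 proximal tubule markers and 13 of 13 distal tubule and duct markers above that bound. In ADR_D9 replicate 3, 5 of 13 proximal tubule and 10 of 13 distal tubule and duct markers were above it. Of 14 leukocyte markers, 8 and 9 were above it in these libraries, summing to 1355 and 2049 FPKM against 7.32 to 79.2 elsewhere. The 7 red cell markers summed highest in ADR_D9 replicate 1, at 547.7 FPKM. They summed to 248 in ADR_D9 replicate 3, 66.5 in ADR_D14 replicate 1 and 0.350 to 5.45 elsewhere. ADR_D9 replicate 2 had 2 of 13 proximal tubule and 1 of 13 distal tubule and duct markers above the bound. In ADR_D9 replicate 1, 1 of 14 endothelial markers was above it. None of 11 podocyte markers was at 0 in any library. Most of their summed level came from Cdkn1c, at 1409 FPKM in ADR_D14 replicate 1 and 3742 to 10670 elsewhere; the other 10 summed to 339.7, 415 and 266 FPKM on day 14 and to 684.5 to 1450 in the PBS and day 9 libraries. Y-linked transcripts summed to 53.6 to 70.5 FPKM in the PBS libraries, ADR_D9 replicate 1 and ADR_D14 replicate 2 and to at most 1.06 FPKM in the other 4.

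With PBS, Vim stood far above the others at 673 FPKM, rank 155 of all symbols. Lmna (73.6), Krt7 (71.5) and Des (52.2) followed and overlapped between libraries. Plec (7.80) and Krt8 (5.23) overlapped as well, and Krt8 also overlapped with Nes (3.13) and Lmnb2 (3.10). Every PBS library had more Vim than Lmna in any, more Des than Plec in any and more Lmnb2 than Lmnb1 in any. Lmnb1 averaged 0.591 FPKM, and Krt18 was at 0.0268, 0.204 and 0.0269 FPKM. Of the 10 genes, 8 reached 1 FPKM in at least 3 libraries and were tested, and Krt18 and Lmnb1 reached 1 FPKM in 2 libraries each and were not.

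By limma, 0 of the 8 genes passed an adjusted p of 0.05 in any of the comparisons, which were day 9 with PBS, day 14 with PBS and day 14 with day 9. Over all 9788 genes tested, 0.0% passed in the first comparison (304 at an unadjusted p under 0.05), 17.1% in the second and 15.7% in the third. At an unadjusted p under 0.05 the counts among the 8 genes were 0, 3 and 0. The 3 on day 14 against PBS were Vim, Des and Plec, all lower, where 34.2% of all genes tested reached that level. Changes are differences of log2(FPKM + 1), a scale that shrinks those of low genes, and are given relative to the median gene, which was at 0.04, −0.15 and −0.22 in the 3 comparisons as deposited. Every p-value, by contrast, tests the change as deposited, before that median is subtracted, so that a fall on day 14 is larger, and a rise smaller, in the test than in the printed change. The median of the 8 genes was −0.15, −0.34 and −0.02, against 0 for all genes by construction.

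**Figure D1:**
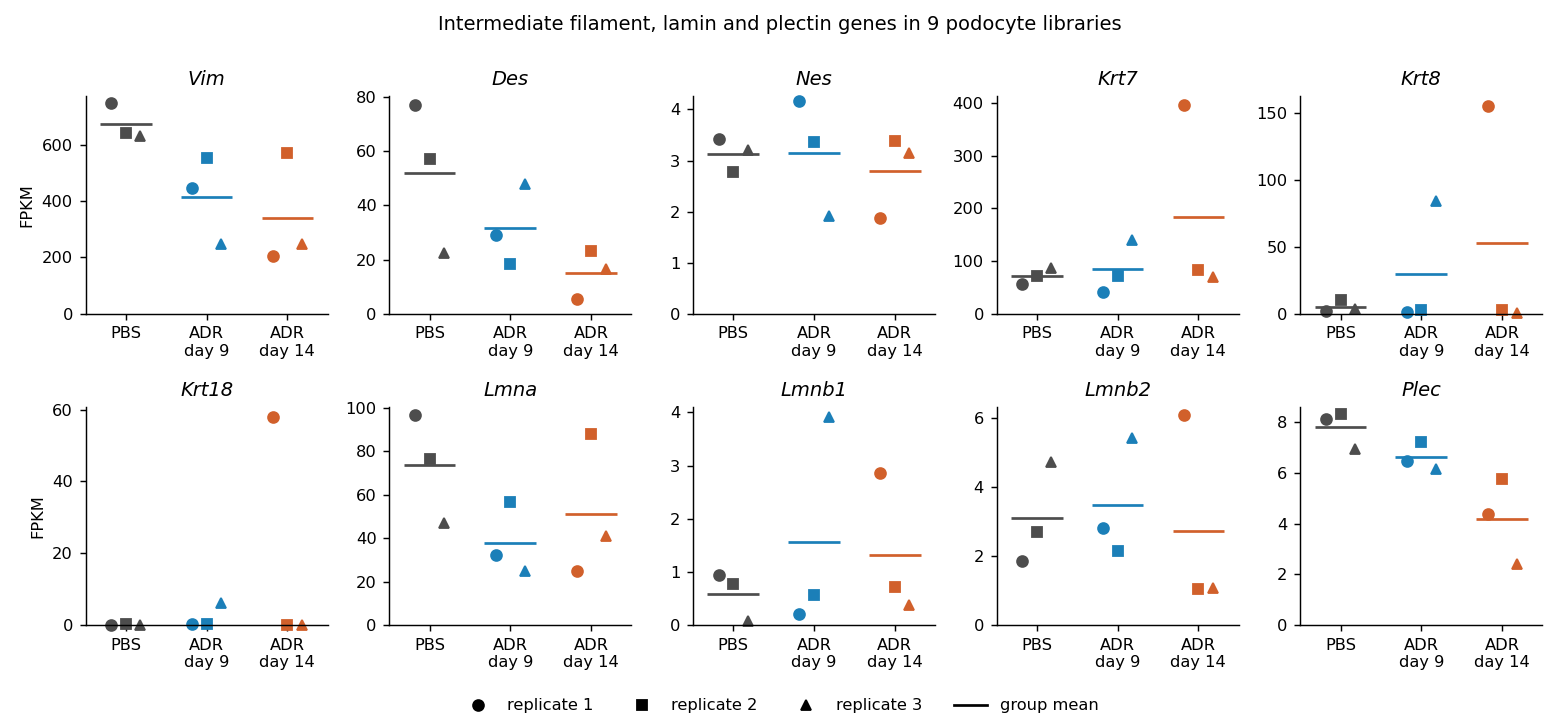
FPKM of the 10 genes in each library (vertical axes, linear from 0), by group (horizontal axes), with marker shape for the replicate number and a line for the group mean, left out for Krt18, which is listed at 0 in 1 library. Vim and Plec lay below all PBS libraries on day 14, and Krt7, Krt8, Krt18, Lmnb1 and Lmnb2 were highest in ADR_D9 replicate 3 or ADR_D14 replicate 1.

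Vim encodes vimentin, the main type III filament of podocytes. It was at 747, 641 and 632 FPKM in PBS libraries, at 446, 553 and 247 on day 9 and at 204, 571 and 246 on day 14. Each ADR library was below the lowest PBS library, with ADR_D9 replicate 2 and ADR_D14 replicate 2 the nearest to the PBS libraries. Lying lower in all 3 libraries than every PBS library was met by 1 of the 8 genes on day 9 and by 2 on day 14, against 6.63% and 23.8% of all genes tested. Group means were 673 ± 63.9, 415 ± 155 and 340.1 ± 201 FPKM (SD, n = 3). Relative to the median gene, Vim differed by −0.80 ± 0.43 (SE, log2) on day 9, by −0.99 ± 0.43 on day 14 and by −0.15 ± 0.43 between the time points. As deposited, the day 14 change was −1.13 (adjusted p = 0.101 by limma). In bulk RNA, a different mix of cells in a library and less Vim RNA per podocyte cannot be told apart. The low libraries included ADR_D9 replicate 3 and ADR_D14 replicate 1, and also ADR_D14 replicate 3. In the last, distal tubule, proximal tubule and endothelial markers summed to 2.997, 3.46 and 17.8 FPKM. There 2 of 14 endothelial markers reached at least 1 FPKM and over 4 times the PBS maximum. Its 8 parietal epithelial markers, of which 0 were above that bound, summed to 147.8 FPKM, against 62.97 to 105.3 in PBS libraries. Of that sum, 102.1 FPKM was Aldh1a1. The same list summed to 829.7 FPKM in ADR_D9 replicate 3 and 363 FPKM in ADR_D14 replicate 1. The part of other cells in the Vim values was not tested. Without ADR_D9 replicate 3 and ADR_D14 replicate 1 the day 14 change of Vim was −0.67, and with a term for Y-linked transcripts it was −0.41. Without ADR_D14 replicate 2 it was −1.45 and passed (adjusted p = 0.0312 by limma).

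Des encodes desmin, the type III filament of muscle cells that is also made by mesangial cells and pericytes. It was at 77.0, 57.1 and 22.3 FPKM in PBS libraries, at 29.2, 18.3 and 47.9 on day 9 and at 5.31, 23.0 and 16.7 on day 14. PBS replicate 3 lay with the ADR libraries, and ADR_D14 replicate 2 lay above it, so that the groups overlapped. Des differed by −0.67 ± 0.62 (SE, log2) on day 9 and by −1.62 ± 0.62 on day 14 (−1.77 as deposited, adjusted p = 0.08 by limma, ratio of mean FPKM 0.288). ADR_D9 replicate 3, the highest of its group, had 5 of 13 mesangial and smooth muscle markers above 4 times the highest PBS library and a summed level of 196 FPKM for that list against 18.6 to 61.4 in the other libraries; the part of these cells in the Des value was not tested. In ADR_D14 replicate 1, where Des was lowest, 2 of the 13 were above that bound, Gata3 and Itga8, which are also above it in ADR_D9 replicate 3, and the sum was 26.5 FPKM. Without ADR_D14 replicate 1 the day 14 change of Des was −1.03.

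The proportion of Vim to Des varied within every group. Vim stood at 9.70, 11.2 and 28.3 times Des in PBS libraries, at 15.3, 30.3 and 5.16 times on day 9 and at 38.3, 24.8 and 14.8 times on day 14.

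Nes encodes nestin, a type VI filament protein that podocytes make and that joins vimentin polymers. It was at 3.43, 2.77 and 3.20 FPKM in PBS libraries, at 4.16, 3.37 and 1.92 on day 9 and at 1.87, 3.38 and 3.15 on day 14. The lowest values were those of ADR_D9 replicate 3 and ADR_D14 replicate 1, and the remaining 7 libraries ran from 2.77 to 4.16 FPKM. Nes differed by −0.07 ± 0.29 (SE, log2) on day 9 and 0.00 ± 0.29 on day 14, with a 95% interval of −0.66 to 0.66 on day 14. Vim was 197 to 232 times Nes in the PBS libraries. It was 107 to 164 times Nes on day 9 and 78.1 to 169 times on day 14. Every ADR library thus had less Vim per Nes than every PBS library. Each also had less Vim alone, so the ratio is not a separate result. It is 1 of 7 between these genes that were computed, and was singled out after the values were seen. The share of other gene pairs with such a pattern was not computed.

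Of the keratins, Krt7 was abundant in every library, Krt8 was low in most and Krt18 was near absent from most. Krt7 encodes the type II keratin 7 of simple and ductal epithelia. It was at 57.3, 70.9 and 86.2 FPKM in PBS libraries, at 41.0, 70.9 and 140.4 on day 9 and at 396, 83.7 and 69.9 on day 14. Outside ADR_D9 replicate 3 and ADR_D14 replicate 1 it stayed between 41.0 and 86.2 FPKM. In the libraries within that range, the distal tubule and duct markers summed to 2.997 to 62.7 FPKM. The part of duct cells in the Krt7 values was not tested. The log2 change on day 14 was 1.05 ± 0.67 (SE, adjusted p = 0.367 by limma), and 0.28 without ADR_D9 replicate 3 and ADR_D14 replicate 1.

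Krt8 and Krt18 encode keratins 8 and 18, the type II and type I chains that pair in simple epithelia such as kidney tubules and ducts. Krt8 was at 2.12, 9.9995 and 3.58 FPKM in PBS libraries, at 1.52, 3.13 and 84.1 on day 9 and at 155, 2.88 and 0.802 on day 14. ADR_D9 replicate 3 and ADR_D14 replicate 1 thus stood 8.41 and 15.5 times above the highest of the other 7 libraries, whose groups overlapped. The log2 change on day 14 was 1.08 ± 1.77 (SE) and turned to −0.86 without these libraries, neither past the test.

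Krt18 was at 0.0268, 0.204 and 0.0269 FPKM in PBS libraries, at 0.148, 0.229 and 6.01 on day 9 and at 57.9, 0.0632 and 0 on day 14. Multiplied by relative depth, these values were whole multiples of a common step, within 0.05 of a whole number. If that step is 1 read, the values stand for 1, 7 and 1 reads in PBS libraries, for 4, 7 and 180 on day 9 and for 476, 1 and 0 on day 14. The 0 of ADR_D14 replicate 3 then allows up to 0.153 FPKM (3 reads), for counting error only. ADR_D9 replicate 3 and ADR_D14 replicate 1 were at 26.2 and 253 times the highest of the other 7 libraries. They also carried the markers of tubule and duct cells, where these keratins are abundant. The distal tubule and duct markers summed to 654 and 13130 FPKM there, against 2.997 to 62.7 in the other libraries. Of these 13 markers, 10 and 13 reached at least 1 FPKM and over 4 times the PBS maximum. The part of tubule and duct cells in the keratin values was not tested.

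These libraries did not share one keratin pattern. Krt8 was 14.002 times Krt18 in ADR_D9 replicate 3 and 2.68 times in ADR_D14 replicate 1. Krt19, a type I keratin of duct epithelia, was at 62.1 FPKM and Krt5, a type II keratin of basal epithelial cells, at 19.9 FPKM in ADR_D9 replicate 3, and both are listed at 0 in ADR_D14 replicate 1. Outside ADR_D9 replicate 3, Krt19 reached at most 3.98 FPKM and Krt5 at most 1.47 FPKM, both in ADR_D9 replicate 1. None of 13 other keratins listed reached the level for testing. GENCODE names 1 pseudogene of Krt8, and the handling of reads with several matches is not known here, so Krt8 values are uncertain to that extent.

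**Figure D2:**
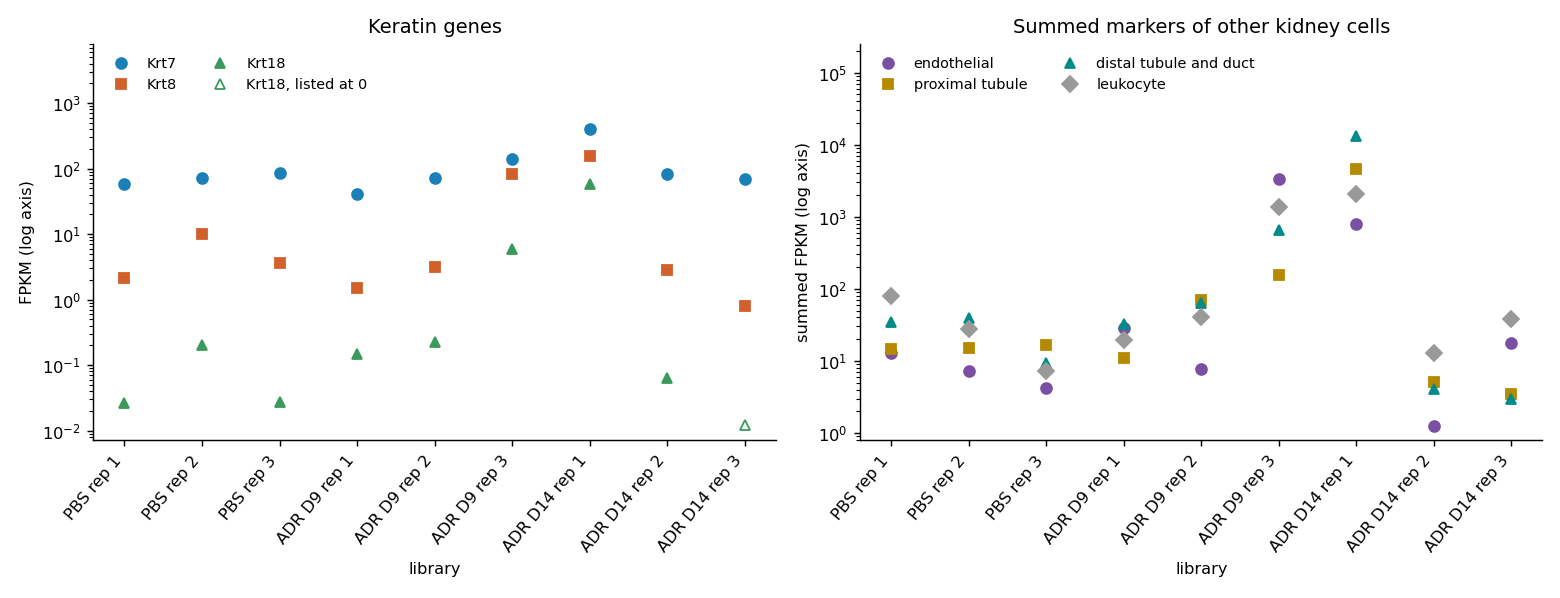
FPKM of Krt7, Krt8 and Krt18 (left) and summed FPKM of marker lists of other kidney cells (right) in each library, both on log axes; the open triangle marks a value listed at 0 and is drawn at the foot of the axis. Krt8 and Krt18 stand highest in ADR_D9 replicate 3 and ADR_D14 replicate 1, where the endothelial, proximal tubule, distal tubule and duct, and leukocyte markers shown are also highest, while Krt7 stays at 41.0 FPKM or more in every library.

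The sequences just upstream of the start sites differ between the gene that is abundant in every library (Vim), the keratin at 41.0 FPKM or more in every library (Krt7) and the pair that was high in the same 2 libraries (Krt8 and Krt18). The 250 bases before each start are shown 5′ to 3′ on the gene's strand, from RefSeq on GRCm38.p6, a later build than that of the expression table. Capitals mark GTGGGNG on either strand, the core of the GC-rich sites that the zinc finger factor WT1, named in the study's title, can bind.
Vim (chr2:13574061-13574310, + strand): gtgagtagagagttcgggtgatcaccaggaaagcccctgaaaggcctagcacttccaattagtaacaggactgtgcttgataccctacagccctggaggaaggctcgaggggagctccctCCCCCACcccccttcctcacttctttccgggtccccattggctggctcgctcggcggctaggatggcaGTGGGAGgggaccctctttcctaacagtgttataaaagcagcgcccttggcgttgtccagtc
Krt7 (chr15:101412153-101412402, + strand): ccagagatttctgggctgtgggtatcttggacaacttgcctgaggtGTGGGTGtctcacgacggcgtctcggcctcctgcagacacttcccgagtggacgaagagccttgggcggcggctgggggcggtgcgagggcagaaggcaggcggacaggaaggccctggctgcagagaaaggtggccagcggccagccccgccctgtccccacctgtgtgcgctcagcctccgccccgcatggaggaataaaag
Krt8 (chr15:102004343-102004592, − strand): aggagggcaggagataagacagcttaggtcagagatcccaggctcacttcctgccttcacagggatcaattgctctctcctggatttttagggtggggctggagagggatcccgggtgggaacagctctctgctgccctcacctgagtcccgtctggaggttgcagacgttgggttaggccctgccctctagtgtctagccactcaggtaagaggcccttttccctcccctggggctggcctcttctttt
Krt18 (chr15:102027966-102028215, + strand): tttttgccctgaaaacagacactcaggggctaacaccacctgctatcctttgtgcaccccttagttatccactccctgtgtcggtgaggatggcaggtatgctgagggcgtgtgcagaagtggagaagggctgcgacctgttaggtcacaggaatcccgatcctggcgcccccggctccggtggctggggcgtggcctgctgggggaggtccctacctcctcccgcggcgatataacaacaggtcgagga
The Vim window holds that core 2 times, with first bases 130 and 62 bases before the start, and the Krt7 window holds it 1 time, 204 bases before it. The Krt8 and Krt18 windows hold none; 28.1% of 32851 mouse promoter windows of this length hold at least 1. On both strands, Vim also has a TATAAA box (in 12.4% of windows) 32 bases before the start and 2 CCAAT boxes (33.8%), and Krt7 has 4 GGGCGG boxes (32.7%). Krt8 and Krt18 have none of these, nor TGANTCA, the AP-1 site (6.75%). Krt8 and Krt18 are neighbours on chromosome 15 with 0 other protein-coding genes between them and opposite strands. Only these genes, of the 8 with a RefSeq promoter, were searched, and a link between matches and expression level was not tested. A match is a description of letters, not evidence of binding.

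Lamins form the meshwork under the nuclear membrane; Lmna gives the A-type lamins, which stiffen the nucleus, and Lmnb1 and Lmnb2 the B-type lamins. Lmna was at 96.9, 76.6 and 47.2 FPKM in PBS libraries, at 32.2, 56.8 and 24.9 on day 9 and at 24.7, 88.2 and 40.9 on day 14. Of the ADR libraries, ADR_D9 replicate 2 and ADR_D14 replicate 2 lay within the PBS range, and the other 4 below it. Lmna differed by −1.0 ± 0.50 (SE, log2) on day 9 and by −0.50 ± 0.50 on day 14, the latter −0.06 without ADR_D9 replicate 3 and ADR_D14 replicate 1. The 95% interval of the day 14 change, −1.63 to 0.63, allows changes in both directions.

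Lmnb2 was at 1.86, 2.70 and 4.72 FPKM in PBS libraries, at 2.81, 2.15 and 5.42 on day 9 and at 6.06, 1.05 and 1.08 on day 14. ADR_D14 replicates 2 and 3 lay below all PBS libraries and replicate 1 above them. ADR_D9 replicate 3 and ADR_D14 replicate 1 were at 1.15 and 1.28 times the highest of the other 7 libraries. Lmnb2 differed by 0.08 ± 0.53 (SE, log2) on day 9 and by −0.19 ± 0.53 on day 14, the latter −0.76 without ADR_D9 replicate 3 and ADR_D14 replicate 1 (adjusted p = 0.071 by limma).

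Lmnb1 was at 0.935, 0.765 and 0.0731 FPKM in PBS libraries, at 0.201, 0.563 and 3.91 on day 9 and at 2.87, 0.716 and 0.371 on day 14. Its values, too, were multiples of a common step; if that is 1 read, they stand for 77, 58 and 6 reads in PBS libraries, for 12, 38 and 259 on day 9 and for 52, 25 and 16 on day 14. Both libraries above 1 FPKM were again ADR_D9 replicate 3 and ADR_D14 replicate 1, at 4.18 and 3.06 times the highest of the other 7. Lmnb1 was 0.157 and 0.116 times Lmna in these libraries and 0.00155 to 0.00997 times Lmna in the others, so A-type lamin transcripts exceeded Lmnb1 in every library.

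Plec encodes plectin, the large linker that ties intermediate filaments to actin, to adhesions and to the nuclear envelope. It was at 8.14, 8.31 and 6.94 FPKM in PBS libraries, at 6.46, 7.23 and 6.15 on day 9 and at 4.39, 5.75 and 2.42 on day 14. Every day 14 library was lower than the lowest PBS library and the lowest day 9 library, and 1 of the 8 genes did the latter, against 24.6% of all genes tested. Group means were 7.80 ± 0.744, 6.61 ± 0.556 and 4.19 ± 1.67 FPKM (SD, n = 3). Plec differed by −0.24 ± 0.29 (SE, log2) on day 9, −0.67 ± 0.29 on day 14 (−0.81 as deposited, adjusted p = 0.0829 by limma) and −0.39 ± 0.29 between the time points. The change on day 14 was −0.70 without ADR_D9 replicate 3 and ADR_D14 replicate 1. Its longest annotated transcript, of 15455 bases, is the longest among the 10 genes, and with each library's trend on transcript length and GC content removed the day 14 change was −0.22.

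With each library scaled to a common total, Vim, Des and Plec passed on day 14 against PBS, at −1.05, −1.67 and −0.68 (adjusted p = 0.0483, 0.0474 and 0.0374 by limma); that scaling moved the median of all genes to −0.34. Over all alternatives the adjusted p ran from 0.0312 to 0.451 for Vim, from 0.0474 to 0.307 for Des and from 0.0374 to 0.577 for Plec. Over all genes, the day 14 calls against PBS were 619 higher and 1051 lower as deposited, 859 and 766 with median-of-ratios scaling, 710 and 755 with quantile normalization, and 414 and 1679 with a common total. Between the time points they were 559 and 977 as deposited, then 823 and 644, 677 and 535, and 393 and 1832. Without PBS replicate 2 and with a term for Y-linked transcripts, 0 genes passed on day 14 against PBS by limma, with 2349 and 2411 at an unadjusted p under 0.05.

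**Figure D3:**
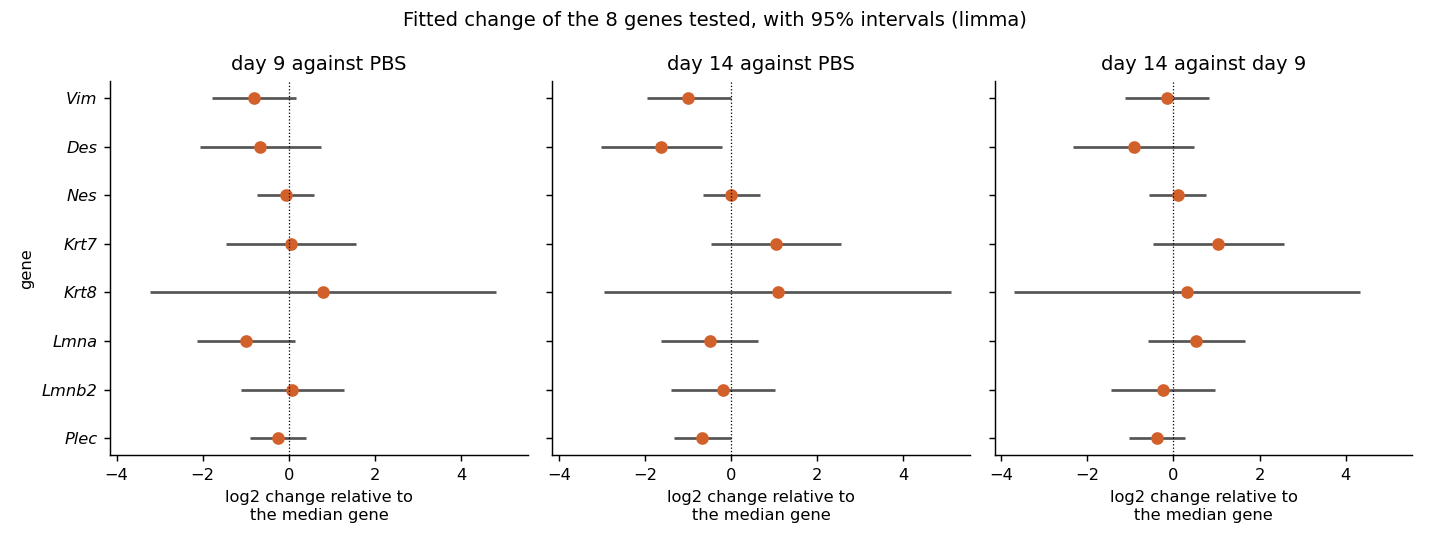
Log2 change relative to the median gene (horizontal axis) of the 8 genes tested, by limma on log2(FPKM + 1), in the 3 comparisons; bars are 95% intervals. The interval of Krt8 spans −2.95 to 5.11 on day 14 against PBS, and those of Vim (−1.96 to −0.01), Des (−3.02 to −0.22) and Plec (−1.32 to −0.01) end below 0. The intervals are relative to the median gene, and the changes as deposited (−1.13, −1.77 and −0.81), which are what limma tested, did not pass after adjustment.

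The genes whose pattern over the 9 libraries was most like that of each member are given as a description. Likeness was measured as the mean absolute difference of log2(FPKM + 1) after centring each gene, among 6306 other genes with a mean of at least 5 FPKM. Stx11, a syntaxin gene, differed from Lmna by 0.12 on average, where Lmna itself deviated from its mean by 0.60; PBS libraries had 57.7, 41.8 and 23.9 FPKM of it, day 9 libraries 16.9, 30.3 and 13.0, and day 14 libraries 12.9, 33.4 and 27.4. Plekhf1 came next for Lmna (0.22). Mbnl2, an RNA splicing factor, and Poc5, a centriole protein gene, were closest to Plec (0.11 and 0.12, against 0.32 for its own deviation). Gm5176 and Clk1, a splicing kinase gene, were closest to Vim (both 0.21, against 0.60), Map2k3 and Sspn to Des (0.37 and 0.40, against 0.80), and Hist1h2ac and Dhrs3 to Krt7 (0.23 and 0.24, against 0.62). Cldn4, a tight junction gene of collecting ducts, and Ptgs1, the cyclooxygenase-1 gene, were closest to Krt8 (0.50 and 0.51, against 1.80). Among the members, Vim and Lmna were the most alike (0.32), with Vim at 6.01 to 13.9 times Lmna in all 9 libraries, and Vim and Lmna were the least like Krt8 (2.12 each).

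Partners of these filaments were described by lists of their functions. On day 9 against PBS, 0 genes of the lists passed limma, with 2 at an unadjusted p under 0.05, both in the nuclear envelope list. Of all 9788 genes tested, 304 were at that level. Of 18 tested nuclear envelope genes, 2 rose and 3 fell on day 14 against PBS (7 at an unadjusted p under 0.05, median log2 change −0.37). Of 5 tested genes that process lamins, 0 rose and 2 fell (4 at an unadjusted p under 0.05, among them Fnta, which was higher, median −0.66). Among all genes tested, 17.1% passed and 34.2% were at an unadjusted p under 0.05 by limma.

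Banf1, whose small chromatin-binding protein tethers DNA to lamins and their partners, rose from 78.7, 53.6 and 73.2 FPKM with PBS to 284, 174 and 201 on day 14, with 72.6, 79.2 and 56.3 on day 9. The log2 change was 1.80 ± 0.26 (SE, adjusted p = 0.0106 by limma). Tor1a, the torsin ATPase of the nuclear envelope lumen, rose from 72.0, 63.3 and 56.6 to 112, 119 and 173 FPKM (1.19, adjusted p = 0.0224 by limma). Those that fell were Sun1, a LINC complex protein that binds lamins across the inner nuclear membrane (−1.20), Syne3, the nesprin that binds plectin at the outer membrane (−0.64), and Tmem43, an inner nuclear membrane protein (−1.12). Sun1 was named after its values were seen. Syne3 was low throughout, at 0.921, 1.23 and 1.11 FPKM in PBS libraries and at 0.496 and 0.188 FPKM in ADR_D14 replicates 2 and 3, and is listed at 0 in ADR_D14 replicate 1.

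Zmpste24, the protease that matures prelamin A, fell from 41.7, 50.9 and 51.6 FPKM with PBS to 17.9, 27.5 and 29.0 on day 14, with 35.8, 40.6 and 34.7 on day 9 (−0.80 ± 0.24 SE, adjusted p = 0.0291 by limma). Fntb, the beta subunit of the farnesyltransferase that modifies lamins before that cleavage, fell from 7.26, 8.40 and 12.8 to 1.36, 3.43 and 1.82 FPKM (−1.58 ± 0.31, adjusted p = 0.0131 by limma). Fnta, its alpha subunit, was at 11.6, 9.75 and 9.88 FPKM in PBS libraries, at 22.3, 19.6 and 20.0 on day 14, and did not pass as deposited (adjusted p = 0.0527 by limma), while its change relative to the median gene was 1.07 ± 0.28 (SE).

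Of the desmosome and hemidesmosome list, 5 of 16 genes could be tested, and 1 fell on day 14 against PBS. In that comparison 17.1% of all genes tested passed. Jup, which encodes plakoglobin of desmosomes and adherens junctions, was at 71.2, 87.5 and 88.1 FPKM in PBS libraries, at 113, 76.1 and 114 on day 9 and at 31.9, 15.1 and 10.5 on day 14 (−2.04 ± 0.37 SE, adjusted p = 0.0116 by limma). Pkp2 and Pkp4, plakophilins, were not past the test (−0.98 and −0.64). Dsp, the desmosomal plakin that anchors keratins, was below the level for testing, at 0.516 to 1.10 FPKM with PBS and 3.13 in ADR_D14 replicate 3. Perp, a desmosomal membrane protein gene, ranged from 1.51 to 212 FPKM and did not pass. Of 6 other plakins, Dst (2.61 to 6.86 FPKM) and Macf1 (0.482 to 1.77 FPKM) were tested and neither passed. Of 10 other type III to VI filament genes, Sync and Prph were tested and neither passed. None of these 4 genes was at an unadjusted p under 0.05 by limma in any comparison.

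The direct test of day 14 against day 9 gave 2 nuclear envelope genes higher and 4 lower, 0 lamin processing genes higher and 2 lower, and 1 desmosomal gene lower, where 15.7% of all genes tested passed. Banf1 and Tor1a rose (1.85 and 1.24), and Jup fell (−2.24). Sun1 (−1.34), Syne3 (−0.72), Ankle2 (−0.86), Tmem201 (−1.41), Fntb (−1.05) and Icmt (−1.05), the methyltransferase that finishes the lamin tail, were lower; Sun1, Ankle2 and Tmem201 were named after their values were seen. This comparison and day 14 against PBS share the day 14 libraries. Of the 9 fits that each left out 1 library, Banf1 and Jup passed here in 9, Syne3 in 6, Tor1a in 5, Fntb and Sun1 in 4, Icmt in 2, and Ankle2 and Tmem201 in 1 each.

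Against PBS, the day 14 calls of partner genes depended on the fit. Without PBS replicate 2, Banf1 (1.63), Tor1a (1.17), Jup (−2.0), Fntb (−1.65), Zmpste24 (−0.77), Tmem43 (−1.06), Syne3 (−0.60) and Sun1 (−1.21) no longer passed by limma, nor did any of them with a term for Y-linked transcripts. Without PBS replicate 3, Banf1 passed, and Tor1a (1.13), Jup (−1.96), Fntb (−1.34), Zmpste24 (−0.72), Tmem43 (−1.23), Syne3 (−0.60) and Sun1 (−1.04) did not. Tmem43 was also lost without PBS replicate 1 (−1.08) and Zmpste24 without ADR_D9 replicate 2 (−0.80). Syne3 passed in 2 and Sun1 in 1 of the 9 fits that each left out 1 library. With the trend on transcript length and GC content removed, Banf1 (1.40), Jup (−1.67) and Fntb (−1.46) passed, and Tor1a (0.92), Tmem43 (−1.05), Zmpste24 (−0.79), Sun1 (−0.89) and Syne3 (−0.09) did not. With only the groups compared in the fit, Banf1 and Jup passed, and Fntb (adjusted p = 0.0503), Tor1a (0.0640), Tmem43 (0.0739), Syne3 (0.0795), Zmpste24 (0.0799) and Sun1 (0.0954) did not, by limma. Median-of-ratios scaling took the adjusted p of Tmem43, Zmpste24 and Sun1 to 0.0523, 0.0651 and 0.0661, and quantile normalization that of Zmpste24, Sun1 and Syne3 to 0.0516, 0.0594 and 0.158, by limma. With no filter Tmem43, Syne3 and Sun1 were at 0.0564, 0.0582 and 0.0925, without ADR_D9 replicate 3 and ADR_D14 replicate 1 Syne3 and Sun1 were at 0.0539 and 0.0855, and Syne3 was at 0.0517 with a pseudocount of 0.1 and at 0.0586 with the replicate block. Between the time points, Banf1 and Jup passed in every alternative tried; with only the groups compared, and with the length and GC trend removed, they were the only ones of the 9 named genes to pass.

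**Figure D4:**
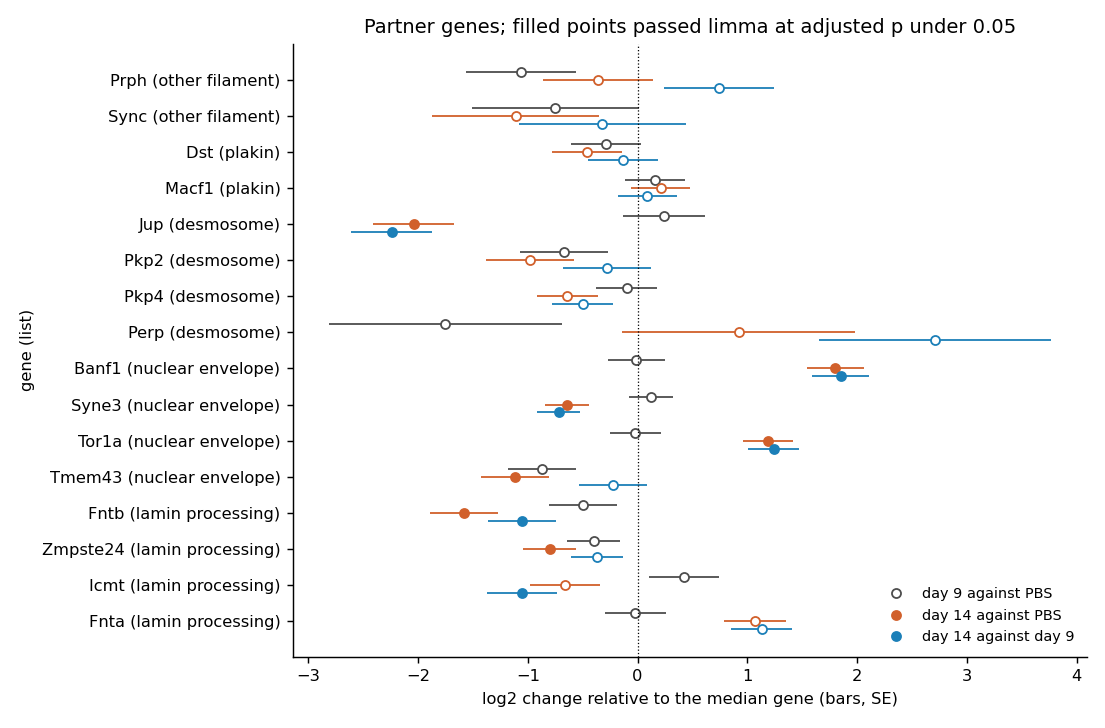
Log2 change relative to the median gene (horizontal axis, bars are SE) of the partner genes with the smallest p of each list, in 3 comparisons by colour; filled points passed limma at an adjusted p under 0.05 and open points did not. Banf1 and Tor1a lie to the right and Jup and Fntb to the left in both day 14 comparisons, and no day 9 point is filled.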

How the data were processed

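RNA of sorted GFP-positive podocytes was measured in 9 libraries. Libraries were made from total RNA after Ribo-Zero depletion of ribosomal RNA, per the labels' protocols. The authors deposited FPKM with 1 column per library; those named control were taken as PBS, by replicate number. Bowtie 0.12.7, Cufflinks and mm9 appear in the submitters' processing notes, with no role given. Annotation, strand use and read counts are not known here, so overlapping genes and near-identical copies are uncertain. Column totals ran from 572787 to 723288 FPKM. Relative depth was taken from the modal ratio of low values (under 0.3 FPKM) in each library to those in PBS replicate 2.

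From the FPKM, genes at 1 FPKM or more in 3 or more libraries (9788 of 23309 symbols; highest row of each symbol) were tested on log2(FPKM + 1) with limma (version 3.58.1, R version 4.3.3), fitting group alone over all 9 libraries and modelling the variance by mean level; tests were two-sided and Benjamini-Hochberg adjusted. The fit was run on simulated data with noise of the same SD for every gene and no outlying library. That setting is simpler than these data, so the run does not measure power or error here. The genes, lists and alternatives were chosen with earlier results of these data known; named partner genes are up to 4 per list with the smallest p, and the 2 genes most like each member of at least 5 FPKM on average. Lengths are of the longest GENCODE M21 transcript, found for 99.5% of genes tested. RefSeq promoters matched 8 of the 10 genes. A marker gene of the podocyte list is not reported here.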

Additional observations from a re-analysis of the deposited data

How the results depend on the processing

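None of the filament, lamin and plectin genes tested passed in any comparison in the fits with a pseudocount of 0.1, other filters, median-of-ratios or quantile scaling, no variance trend, only the groups compared, a replicate block, a term for Y-linked transcripts, the length and GC trend removed, or without ADR_D9 replicate 3 and ADR_D14 replicate 1; with a common total 3 passed on day 14 against PBS, and with 1 library left out between 0 and 1 did. The count of all genes passing was 0 on day 9 (2 with no filter, 1 with only the groups compared, 0 to 1 with 1 library left out), 1670 on day 14 (997 with no filter, 470 with only the groups compared, 0 with the Y-linked term, 598 with the length and GC trend removed, 0 to 1885 with 1 library left out, with 0 without PBS replicate 2, 150 without PBS replicate 3 and 1081 without ADR_D9 replicate 2) and 1536 between the time points (881, 262 and 439 in the first, second and length settings, 381 to 2124 with 1 library left out, with 729 without PBS replicate 2 and 497, 625 and 381 without ADR_D9 replicates 1, 2 and 3). For libraries with the same replicate number, nothing beyond the shared number is known here. Correlations of their deviations ran from −0.265 to 0.431, and those of libraries with different numbers from −0.523 to 0.458. With the replicate block 0, 1301 and 1200 genes passed. The filter of 5 FPKM left Nes and Lmnb2 untested.

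Of 24 log2 changes of these genes, 12 kept their sign in every alternative. Without both ADR_D9 replicate 3 and ADR_D14 replicate 1, the signs turned on day 9 for Nes (0.19), Krt7 (−0.39), Krt8 (−0.76) and Lmnb2 (−0.20), on day 14 for Krt8 (−0.86) and between the time points for Krt8 (−0.10). With the Y-linked term they turned on day 9 for Nes (0.24), Krt7 (−0.70), Krt8 (−0.86) and Lmnb2 (−0.29) and on day 14 for Krt8 (−0.55). With length and GC removed they turned for Lmnb2 (−0.0099 on day 9, 0.24 on day 14, 0.28 between the time points) and Plec (0.26 between them). Nes turned with no filter (−0.13 on day 14, −0.092 between the time points) and with median-of-ratios scaling (−0.0037 on day 14). With 1 library left out, day 9 ranges were −0.22 to 0.19 for Nes, −0.39 to 0.48 for Krt7, −0.76 to 1.78 for Krt8 and −0.20 to 0.33 for Lmnb2. On day 14 they were −0.13 to 0.22 for Nes, −0.86 to 2.33 for Krt8 and −0.76 to 0.11 for Lmnb2. Between the time points they were −0.61 to 0.15 for Vim, −0.18 to 0.30 for Nes, −1.64 to 1.84 for Krt8 and −0.82 to 0.058 for Lmnb2. The causes were not tested. The day 14 libraries were the shallowest, which limits the precision of low genes such as Krt18 and Lmnb1.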
